A study of Caenorhabditis elegans with 24 samples.

Results

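The genes described here are 257 Caenorhabditis elegans genes that the deposited expression table lists by a sequence name alone and whose transcripts were lower in injured than in uninjured worms at 8, 48 and 96 h after blunt force trauma. They were chosen from the values themselves. A gene entered if its identifier was a sequence name, if it reached 1 RPKM (reads scaled to exon length and to the library's mapped reads) in at least 4 of the 24 libraries, and if d was at most -0.8 at each of the 3 times. The genes C17H12.6, C17H12.8, C32H11.9 and F55G11.4 were set aside by the rule, although C17H12.6, C17H12.8 and F55G11.4 met the limit on d at each time. The quantity d is the log2 ratio of the injured to the control mean RPKM, with 0.5 RPKM added to each mean. The rule chose 257 of the 7422 sequence-named features that passed the RPKM limit, or 3.46%, and a further 2 met the limit on d but not the limit on RPKM. Among the 7391 features listed by a gene symbol, or by another kind of identifier, 269 (3.64%) met the same limits.

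A sequence name joins the clone on which a gene was predicted to a number, and a worm gene receives a symbol once it is characterised or placed in a family. For most genes known only by such a name no function has been measured. Those that have since received symbols include carboxylesterases, which cleave ester bonds in lipids and foreign compounds, and small secreted peptides of the innate immune response. The worm intestine is the organ that digests food, stores fat, makes yolk and expresses many of the immune effectors.

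Whole worms of the wild-type strain N2, as the labels name it, were grown at 25 °C under RNAi of cdc-25.1, fed to them through their bacteria, a treatment that leaves the adults without progeny and that every group received. On day 1 of adulthood they were shaken at 8600 rpm for 16 s, or were handled alike without shaking, and poly(A) RNA was sequenced after 8, 48 or 96 h. A control and an injured group of 4 libraries at each time made 6 groups. The study's figure legends speak of CF512, a strain sterile at high temperature, in such experiments, and give 4 independent replicates per condition. What made them independent is not said, and nothing in the labels says that the libraries of a group came from separate cultures. The p-values thus measure the spread between these libraries, which may still be technical in part. Library numbers follow the order of columns and serve only as names. Each RNA sample came from whole worms, so fewer cells of a type and less RNA per cell cannot be told apart.

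The depth, read from the steps between low RPKM values, was 19400000 to 30162500 mapped reads in 23 libraries and was not recovered in control 48 h library 4. In that library rRNA genes took 44.6% of the reads. They took 7.27% in injured 8 h library 4, 7.06% in control 48 h library 2 and 0.670 to 4.17% elsewhere. The median of all 14813 features tested was 2.62 in control 48 h library 4 on the log2(RPKM + 0.5) scale, against 3.35 to 3.73 in the other controls of that time. Every 48 h control mean below includes this library as deposited. Without the 3 libraries over 5% rRNA the rule would have chosen 412 genes, 250 of them among the 257.

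How far the transcripts fell short of the controls is a description of the rule's own values and carries no test. The median d of the 257 genes was -1.15, -1.31 and -1.90 at the 3 times, against 0.01, 0.42 and 0.07 over all features tested. On the RPKM scale the median gene stood at 40.1, 36.9 and 22.04% of its control mean at the 3 times. The most negative of the 3 values of d fell at 96 h in 187 genes, at 48 h in 37 and at 8 h in 33, and in 113 genes d became more negative at each step. A d of -1 or less was present at all 3 times in 130 genes, and a d of -2 or less at all 3 times in 2. The 269 other lower features had medians of -1.28, -1.34 and -1.81.

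All 4 injured libraries lay below all 4 controls in 241 of the 257 genes at 8 h, in 164 at 48 h, in 250 at 96 h and in 150 at every time. Over all features tested the shares at the 3 times were 14.4, 4.83 and 30.2%, and since these contrasts chose the genes nothing is read from the counts. Library by library, the median log2(RPKM + 0.5) of the 257 genes was 3.97 to 4.20 in 8 h controls and 2.47 to 2.90 in injured worms. The ranges were 3.10 to 4.45 and 2.15 to 2.80 at 48 h, and 3.86 to 3.98 and 1.69 to 2.41 at 96 h. The groups did not overlap at any time, and the low end of the 48 h controls was library 4. Injured 8 h library 2 was the low end of its group. Its median over all features tested was 3.15, against 3.55 to 3.61 in the other injured libraries of that time.

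**Figure D1:**
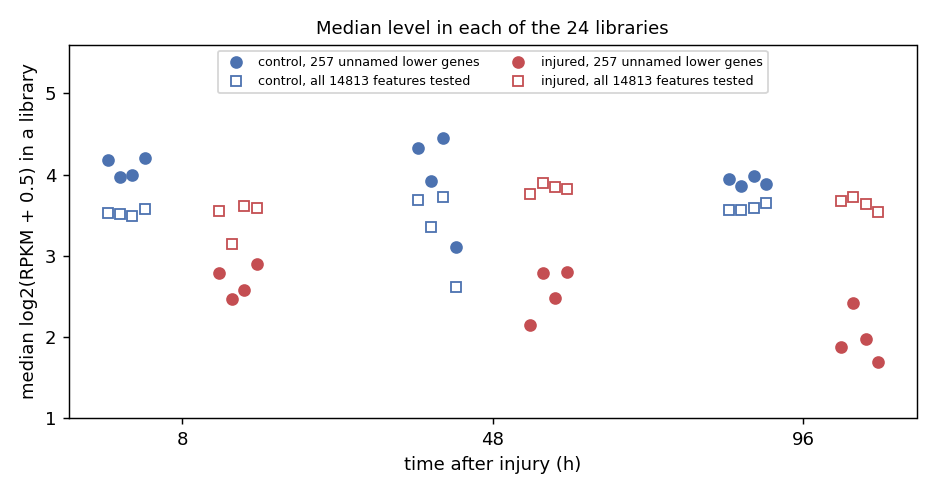
Median log2(RPKM + 0.5) over the 257 unnamed lower genes (filled circles) and over all 14813 features tested (open squares) in each library, by time after injury in h, controls in blue and injured worms in red. The medians of the unnamed lower genes lie at 1.69 to 2.41 in injured worms at 96 h and at 3.86 to 3.98 in the controls, whereas the open squares of the same groups lie close together.

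The genes just inside the limit were ZC412.3, with d of -0.80, -1.31 and -2.01 at 8, 48 and 96 h, C39B5.2, with -0.80, -1.84 and -1.37, and F41E6.5, with -0.94, -0.80 and -1.97. Just outside were R07B7.10, with -0.94, -0.80 and -1.79, T08H10.1, with -0.98, -0.80 and -1.56, and Y47G6A.31, with -1.41, -0.80 and -0.998. The limit thus lies within a continuous range of values.

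The mean RPKM of the 257 genes over the 12 control libraries ranged from 0.954 to 3520 with a median of 16.9, against 8.46 for all sequence-named features tested, and 160 reached 10 and 42 reached 100. For 254 genes with an exon length, the control mean corresponded to a median of 404 reads, with 18 genes under 50 reads and 2 under 20. The spread between the 4 libraries of a group, as the median coefficient of variation over the genes, was 16.2, 35.8 and 14.4% in the controls of 8, 48 and 96 h and 29.9, 28.4 and 33.3% in injured worms.

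C17F4.7 (chromosome II, 3245087 to 3246015, minus strand, ce11), a protein-coding gene without a symbol, had the highest control level. Its RPKM was 3045, 2482, 2525 and 3173 in the 8 h controls and 1063, 892, 838 and 1065 in injured worms. The 48 h values were 4227, 3073, 4785 and 1861 against 894, 1723, 1244 and 1633, and those of 96 h were 3940, 4743, 4677 and 3706 against 853, 1156, 718 and 472. Injured worms thus had 34.4, 39.4 and 18.7% of the control mean, and no library overlapped at any time, although control 48 h library 4 came close to the highest injured library.

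M28.10 (II, 10647516 to 10648676, plus strand) had the largest control rise among the 10 genes of highest level. Its RPKM in the controls was 223, 176, 212 and 280 at 8 h, 552, 484, 627 and 286 at 48 h, and 1092, 1069, 1023 and 1002 at 96 h. In injured worms it was 95.04, 134, 85.7 and 94.3, then 112, 148, 133 and 179, then 117, 127, 83.7 and 60.3. The controls rose by 2.25 ± 0.23 (log2, SE, limma adjusted p = 2.08e-10) between 8 and 96 h, and the injured change was -0.11 (limma adjusted p = 0.742). The rule used the same libraries, so changes with time of single genes are descriptions here and below. The difference between the changes of the groups was not tested. M28.10 stood at 9.28% of the control mean at 96 h.

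K06G5.1 (X, 14214973 to 14219045, plus strand), now kola-4, behaved alike. Its control means were 408 ± 67.8, 951 ± 236 and 1338 ± 97.2 RPKM (SD, n = 4) at 8, 48 and 96 h and its injured means 226 ± 37.8, 356 ± 76.9 and 215 ± 62.0. The control rise was 1.72 (log2, limma adjusted p = 2.00e-08) and the injured change -0.11 (limma adjusted p = 0.741). Y57G11B.5 (IV, 14574819 to 14576580, plus strand) rose from 461 ± 82.5 to 990 ± 116 RPKM (SD, n = 4) in the controls between 8 and 96 h, a log2 change of 1.11 (limma adjusted p = 0.00013), and its injured means were 230 ± 39.3 and 180 ± 53.1.

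T24B8.5 (II, 9082626 to 9083193, minus strand), now sysm-1, encodes a small secreted peptide and is widely used as a readout of the PMK-1 MAP kinase pathway of innate immunity. Its RPKM was 1411, 1021, 872 and 1087 in the 8 h controls and 675, 583, 396 and 462 in injured worms. The 48 h values were 1054, 847, 1247 and 447 against 221, 298, 297 and 337, and those of 96 h 619, 655, 740 and 415 against 150, 239, 110 and 110. Here both groups declined with time: the log2 change from 8 to 96 h was -0.86 (limma adjusted p = 0.00551) in controls and -1.84 (limma adjusted p = 9.56e-07) in injured worms. The groups were apart at every time.

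T21H3.1 (V, 1176724 to 1178864, plus strand) differed in that its control level was 906 ± 96.0, 980 ± 220 and 1058 ± 89.03 RPKM at the 3 times, with a log2 change of 0.23 from 8 to 96 h that did not pass (limma adjusted p = 0.416). Its injured level was 499 ± 154, 262 ± 68.7 and 210 ± 74.6 RPKM (SD, n = 4), a fall of 1.28 on the log2 scale between 8 and 96 h (limma adjusted p = 4.62e-05). T22B7.7 (X, 5651865 to 5654074, minus strand) had 18.8% of the control mean at 8 h, 45.1% at 48 h and 14.9% at 96 h, and at 48 h its injured libraries, at 83.7, 243, 132 and 178 RPKM, overlapped the controls, at 444, 340, 458 and 170. F23D12.11 stood at 39.2, 33.0 and 19.5% of control and K06A4.7 at 27.2, 34.6 and 23.5%.

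**Figure D2:**
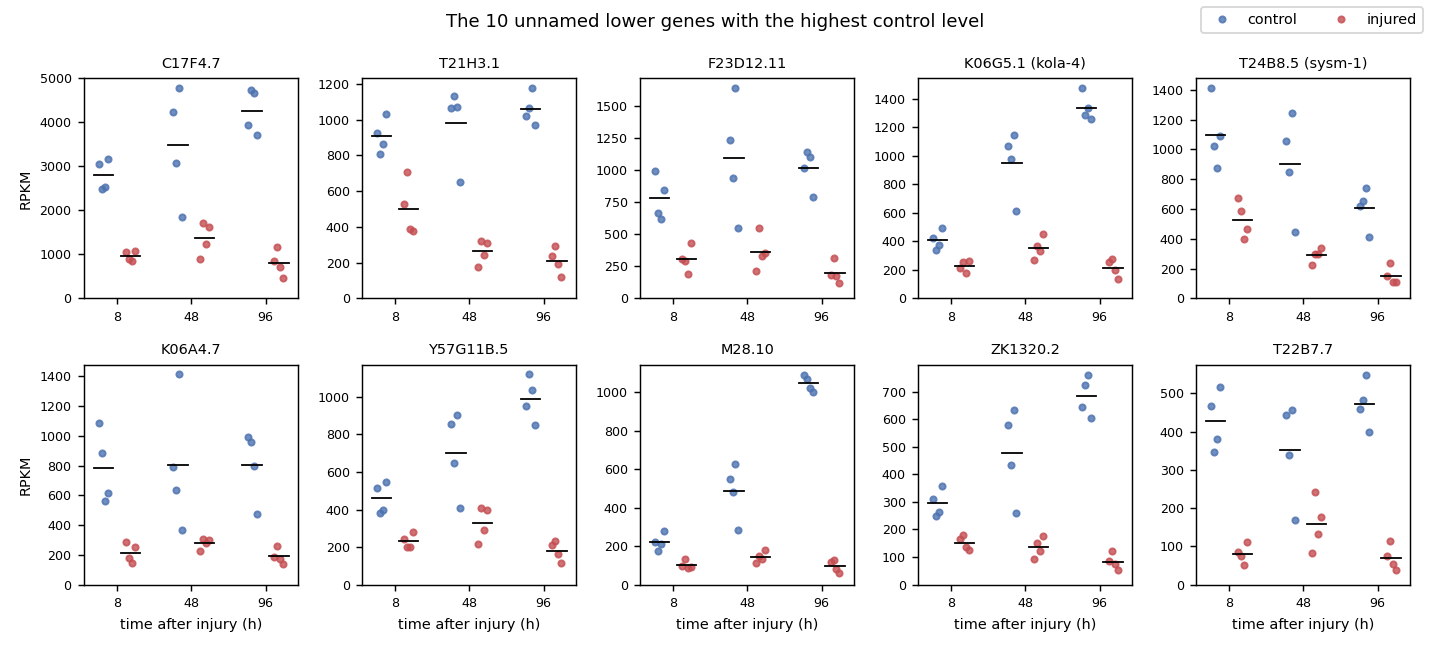
RPKM in each library (points) and group means (black lines) of the 10 unnamed lower genes with the highest control level, by time after injury in h, controls in blue and injured worms in red, each panel on its own linear axis from 0. M28.10 and K06G5.1 (kola-4) rise with time in the controls and stay low in injured worms, whereas T24B8.5 (sysm-1) declines in both.

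The genes furthest below control were of lower level. Y54G2A.49 (IV, 2851691 to 2853264, minus strand) had an RPKM of 36.4, 35.2, 26.0 and 28.7 in the 8 h controls and 4.51, 3.02, 3.25 and 14.2 in injured worms. It had 48.8, 45.9, 49.3 and 42.9 in the 96 h controls and 4.50, 7.89, 4.29 and 1.25 in injured worms, or 9.59% of control. Its annotated span lies on the strand opposite clec-85, a C-type lectin gene, over its whole length of 1574 bases. Whether strand was used in counting is not stated, so reads of the pair cannot be told apart, and clec-85 was itself lower by 1.44, 1.69 and 2.49 on the log2 scale at the 3 times.

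F01D5.2 (II, 13998460 to 13999064, minus strand) reached the most negative d of all, -3.80 at 96 h. Its RPKM in the 96 h controls was 70.6, 49.98, 54.9 and 52.6 and in injured worms 4.03, 4.98, 2.73 and 2.73. At 8 h the values had been 29.6, 18.9, 18.2 and 16.7 against 6.89, 6.73, 5.04 and 7.11. The neighbours F01D5.1 and F01D5.3, which adjoin it on the same strand, were lower as well, at 11.8 and 13.05% of the control mean at 96 h.

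C35E7.5, on chromosome I, had 36.9% of control at 8 h, 10.98% at 48 h and 12.7% at 96 h. Its injured means fell from 18.2 ± 3.66 to 5.28 ± 0.861 RPKM (SD, n = 4) between 8 and 96 h, a log2 change of -1.69 (limma adjusted p = 1.37e-07), and its controls changed by -0.27 (limma adjusted p = 0.305). C08F1.6 (II, 1787217 to 1788187, minus strand) likewise went from 26.3 to 10.6% of control, with an injured change of -1.38 (limma adjusted p = 0.00131). The rule required low injured values in these 96 h libraries, so nothing is read from such injured changes. Y40H7A.10 (IV, 15210123 to 15215597, minus strand), C30G12.2 (II, 7290426 to 7291719, plus strand) and ZK1193.4, for which no position was matched, stood at 13.3, 10.1 and 8.26% of control at 96 h.

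C40A11.10 (II, 2136552 to 2137329, minus strand) is annotated as the locus of the microRNA mir-8199. The reads are from poly(A) RNA over the annotated 778 bases and say nothing of the mature microRNA. Its RPKM was 42.9, 36.2, 45.3 and 50.4 in the 96 h controls and 8.41, 5.97, 5.22 and 7.59 in injured worms, and the control level rose by 1.09 (log2, limma adjusted p = 0.000475) from 8 to 96 h. Its neighbours C40A11.4 and C40A11.6 are also among the 257 genes.

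**Figure D3:**
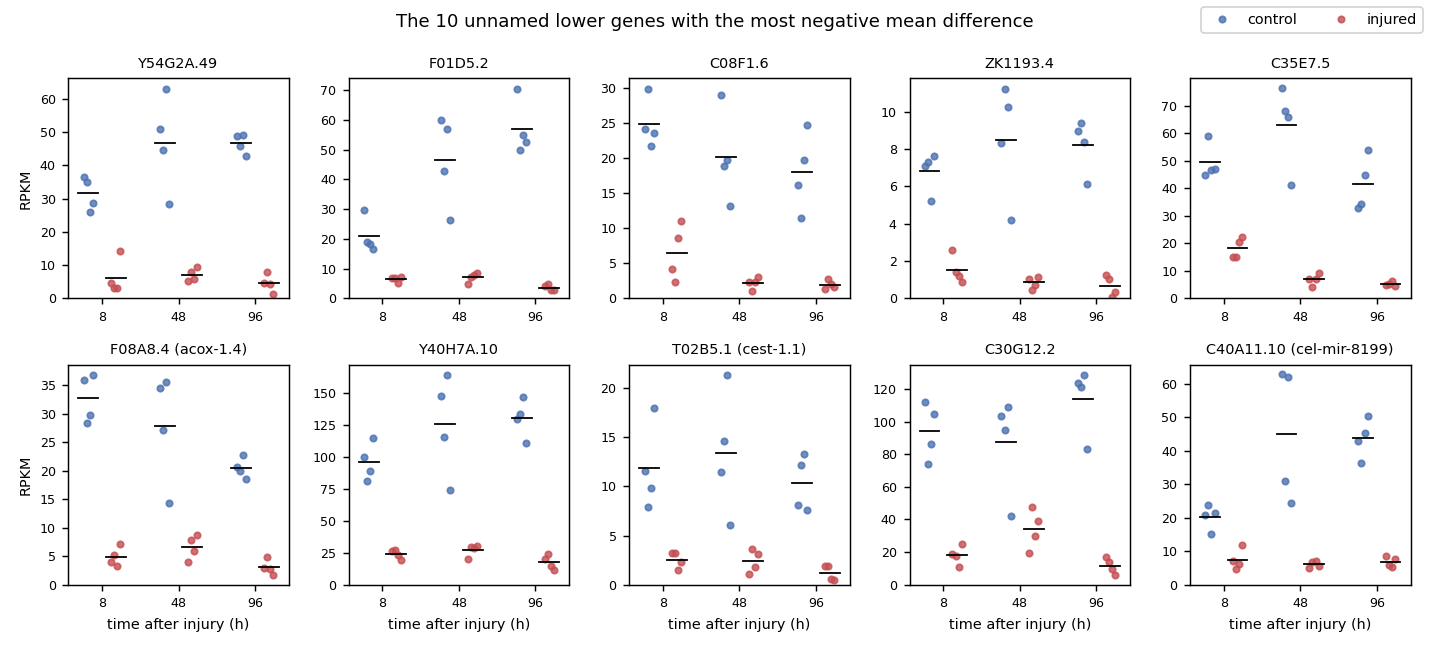
RPKM in each library (points) and group means (black lines) of the 10 unnamed lower genes with the most negative mean d over the 3 times, by time after injury in h, controls in blue and injured worms in red, each panel on its own linear axis from 0. The injured libraries of F01D5.2 lie between 2.73 and 4.98 RPKM at 96 h and those of the controls between 49.98 and 70.6.

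Of the 257 genes, 234 are protein coding, 18 are annotated as pseudogenes, 1 is the microRNA locus, 1 is a long intergenic RNA (Y9D1A.1) and 3 were not matched (ZK1193.3, ZK1193.4 and R08E3.2). Ensembl or RefSeq now gives a symbol to 48 of them. The largest family was cest, the carboxylesterases, with 10 of the 30 members tested. The nematode-specific peptide family nspg gave 7 of 10 and kola 4 of 5, while hrg, clc and mfsd gave 2 each, of 12, 24 and 11.

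Among the carboxylesterases the lowest d belonged to T02B5.1 (cest-1.1; V, 14163255 to 14166730, minus strand), at -2.01, -2.27 and -2.68. Its RPKM was 11.6, 7.92, 9.84 and 18.03 in the 8 h controls and 3.18, 3.26, 1.49 and 2.29 in injured worms, and 8.14, 12.2, 13.3 and 7.60 against 1.90, 1.91, 0.53 and 0.43 at 96 h. The 10 genes had modest levels, with control means of 1.78 to 19.4 RPKM over the 3 times. The family was not uniform. The 20 other cest genes ranged at 8 h from a d of -1.27 in cest-15 to 1.54 in cest-32, and cest-27 was above control at each time, with d of 1.10, 0.88 and 1.25. The median d of all 30 was -0.72, -0.55 and -1.31.

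The nspg genes among the 257 ranged widely in level. F49C12.14 (nspg-11) had control means of 14.3, 24.3 and 22.15 RPKM at 8, 48 and 96 h. LLC1.2 (nspg-9) had control means of 286, 325 and 347 RPKM at 8, 48 and 96 h and injured means of 108, 112 and 63.7. F19C7.1 (nspg-10) had control means of 244, 400 and 455 and injured means of 118.9, 123 and 75.2. Of the 3 tested nspg genes outside the group, nspg-7.1 and nspg-13 missed it at 8 h alone, with d of -0.67 and -0.72, and had d of -2.37 and -2.13 at 96 h, whereas nspg-1 had d of 0.72, 0.04 and -1.32.

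The 4 kola genes rose with time in the controls and stayed below them in injured worms. C01B10.6 (kola-3) had control means of 187, 345 and 494 RPKM and injured means of 92.4, 79.6 and 52.3, C49C3.4 (kola-5) had 71.5, 146 and 195 against 29.6, 39.99 and 24.01, and R08E3.1 (kola-2) had 74.8, 121.9 and 149 against 30.2, 38.5 and 21.5. With kola-4 they went from d of -0.85 to -1.29 at 8 h to d of -2.64 to -3.23 at 96 h. In injured worms kola-3 fell by 0.82 on the log2 scale from 8 to 96 h (limma adjusted p = 0.00543), whereas kola-5, kola-2 and kola-4 had changes of -0.32, -0.49 and -0.11 that did not pass. The fifth gene, kola-1, had means of 2.50, 3.02 and 3.03 RPKM in controls and 1.73, 3.24 and 2.35 in injured worms.

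**Figure D4:**
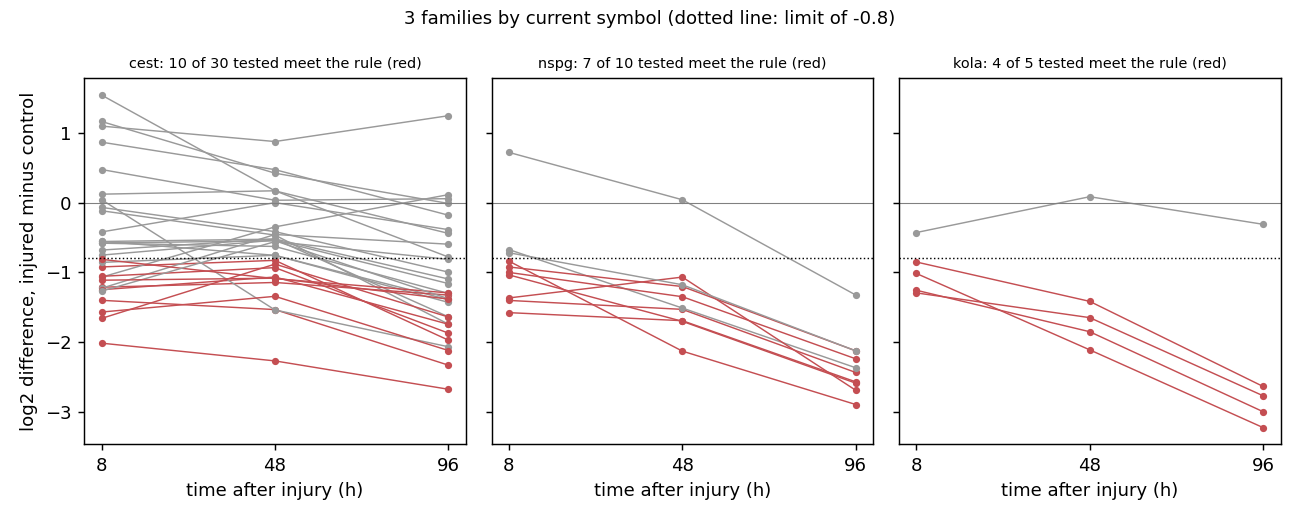
The log2 difference d, injured minus control, of every tested gene of the cest, nspg and kola families at 8, 48 and 96 h, 1 line per gene, genes meeting the rule in red, others in grey, and the limit of -0.8 dotted. The kola genes in red end between -2.64 and -3.23, whereas the 30 cest genes spread on both sides of 0 at 8 h.

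Genes of known metabolic roles were also present. F08A8.4, now acox-1.4, encodes an acyl-CoA oxidase of peroxisomal fatty acid shortening, and its RPKM was 36.0, 28.5, 29.9 and 36.9 in the 8 h controls against 3.90, 5.29, 3.30 and 7.17 in injured worms. The 96 h values were 20.6, 20, 22.8 and 18.5 against 2.90, 4.84, 2.68 and 1.73. The injured share, 14.99% at 8 h and 14.8% at 96 h, was thus low from the first time on.

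F10F2.2 (pfas-1) and B0286.3 (paic-1) encode enzymes of de novo purine synthesis. In pfas-1 the control means were 31.1, 38.2 and 61.9 RPKM and the injured means 12.5, 15.6 and 12.9, and in paic-1 they were 37.2, 41.8 and 57.9 against 19.4, 18.1 and 13. On the opposite strand the pfas-1 span shares 3140 bases with lron-5 and 93 with lips-3. F52H2.6 (dhcr-24), named after a human sterol reductase, had injured means at 34.2, 37.3 and 20.3% of control, and F13D12.6 (ctsa-1.2), named after the lysosomal carboxypeptidase cathepsin A, at 51.1, 32.5 and 28.0%.

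ZK6.11, now irg-8, is an infection response gene. Its RPKM was 351, 325, 357 and 433 in the 8 h controls and 144, 159, 117 and 322 in injured worms, and 319, 223, 290 and 257 against 120, 152, 106 and 70.9 at 96 h. Injured 8 h library 4 lay just under the lowest control. Other members carry the names of claudin-like proteins (clc-23 and clc-27), of lysosomal transporter-like proteins (mfsd-8.1 and mfsd-8.2) and of a glucosyltransferase family that conjugates small molecules (ugt-66). In clc-23 the control mean went from 12.2 to 57.9 RPKM between 8 and 96 h and the injured mean from 6.45 to 9.29.

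The genes were unevenly placed on the chromosomes. They made up 4.81% of the sequence-named features tested on chromosome IV (59 genes), 4.23% on II (54), 4.06% on V (62), 3.21% on X (36), 2.60% on III (28) and 1.38% on I (15). Another of the 257 genes lay within 10 kb of 57 of the 254 placed genes (22.4%), whereas 445 of 7068 other sequence-named features (6.30%) had such a neighbour. These are descriptions with no test. Of 25 such groups, 4 held 3 genes or more. They were F55C9.5, F55C9.14, C43D7.10, C43D7.8 and C43D7.11 (V, 19290574 to 19312819), the carboxylesterases T02B5.3, T02B5.1, ZC376.3 and ZC376.2 (V, 14157663 to 14175355, all on the minus strand), the C40A11 genes and the F01D5 genes.

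The spans of 61 genes (24.02%) overlapped another feature that reached 1 RPKM, 46 of them on the opposite strand, and 8 overlapped another of the 257 genes. Values of near-identical copies such as neighbouring carboxylesterases depend on how shared reads were assigned, which is not stated.

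The rule compared injured with control worms within a time and did not use the change with time within a group, although both rest on the same libraries. Between 8 and 96 h the controls rose in 76 of the 257 genes (36.2% of all features tested did) and fell in 66 (26%), by limma with Benjamini-Hochberg adjustment over 14813 features at 0.05. In injured worms 8 rose (23.5%) and 109 fell (11.2%). The control shares of 29.6 and 25.7% were near the background. The injured fall covered 42.4% of the genes, but the rule required low injured values in the same 96 h libraries, so nothing is read from that share. With median-of-ratios scaling between libraries 9 rose and 158 fell in injured worms, when 22.4% of all features rose and 24.6% fell. Without the 3 libraries over 5% rRNA 16 of the 135 genes called rose, when 36.3% of all features rose and 14.5% fell. Of the 269 other lower features 132 (49.1%) fell in injured worms. The median change of the 257 genes was 0.19 in controls and -0.55 in injured worms, against 0.19 and 0.20 over all features.

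By their course in the controls the genes fell into 3 classes. The 76 risers had a median control change of 1.01 and a median injured change of -0.19, with 7 called higher and 12 lower in injured worms. The 66 that fell had medians of -1.20 in controls and -1.26 in injured worms, 52 of them called lower there and 0 higher. Of the 115 not called in controls, 45 fell and 1 rose in injured worms. Over all features 23.5% rose and 11.2% fell in injured worms, and shares within such classes were not computed. The rule required low injured values at 96 h, so nothing is read from these counts. The risers had a median control level of 35.8 RPKM against 12.3 for those that fell. In 209 of the 257 genes the injured change was below the control change, which follows from the d values given above and is no separate result.

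The steepest control rises were in C03G6.5, now exc-13 (V, 7365251 to 7366060, plus strand), and Y65B4BR.1, on chromosome I. The RPKM of C03G6.5 was 7.79, 4.65, 4.27 and 5.49 in the 8 h controls and 36.3, 40.0, 37.1 and 32.5 in those of 96 h, a log2 change of 2.64 ± 0.26 (SE, limma adjusted p = 9.41e-11). In injured worms it was 1.85, 1.85, 2.24 and 2.90 and then 7.30, 7.57, 5.37 and 5.03, a rise of 1.33 (limma adjusted p = 9.18e-05). Y65B4BR.1 rose by 2.54 in controls (limma adjusted p = 1.25e-09) and by 1.79 in injured worms (limma adjusted p = 2.48e-06). Both transcripts increased with time with and without injury, from a lower level in injured worms.

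Y34F4.1 (clc-23) and F12A10.1 (II, 5496540 to 5497062, plus strand) rose by 2.24 and 2.12 in controls (limma adjusted p = 3.68e-08 and 0.000123). In F12A10.1 injured 8 h library 4, at 59.4 RPKM, overlapped the controls, at 109, 84.4, 65.6 and 54.02.

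The steepest control fall was that of Y71A12B.11, on chromosome I. Its RPKM was 18.3, 23.97, 20.3 and 16.3 in the 8 h controls and 1.34, 0.77, 2.47 and 2.40 in those of 96 h, a fall of 3.24 on the log2 scale (limma adjusted p = 2.14e-10). Injured worms had 4.28, 1.66, 6.24 and 5.44 at 8 h and 0.20, 1.27, 0.51 and 1.10 at 96 h, when the groups overlapped. F45D11.14 (II, 1004616 to 1006475, minus strand) fell by 2.64 in controls and by 2.67 in injured worms (limma adjusted p = 7.19e-09 and 9.94e-09), with d of -1.08, -1.11 and -1.02. R03G8.6 (X, 13094552 to 13100510, minus strand) fell by 2.12 and 2.77 (limma adjusted p = 3.90e-10 and 7.90e-13), F34D6.1 by 2.13 in controls and F14B6.3 by 2.11.

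In 7 genes every 96 h control lay above every 8 h control while every 96 h injured library lay below every 8 h injured library, and 0 showed the reverse. Over all 14813 features tested the shares were 2.17 and 0.918%, so 7 of 257 is near the background. They were H34I24.2, F01D5.2, ZK1320.2, C40A11.4, F49C12.14 (nspg-11), Y105C5B.15 and Y32F6A.5. H34I24.2 (III, 2842044 to 2845197, plus strand) had 191, 164, 180 and 245 RPKM in the 8 h controls and 563, 582, 548 and 488 in those of 96 h. Its injured libraries had 109, 140, 81.9 and 76.2 at 8 h and 57.5, 69.2, 44.9 and 30.5 at 96 h. ZK1320.2 (II, 9657882 to 9659002, minus strand) rose by 1.22 in the controls (limma adjusted p = 5.47e-05) and fell by 0.92 on the log2 scale in injured worms (limma adjusted p = 0.00288).

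**Figure D5:**
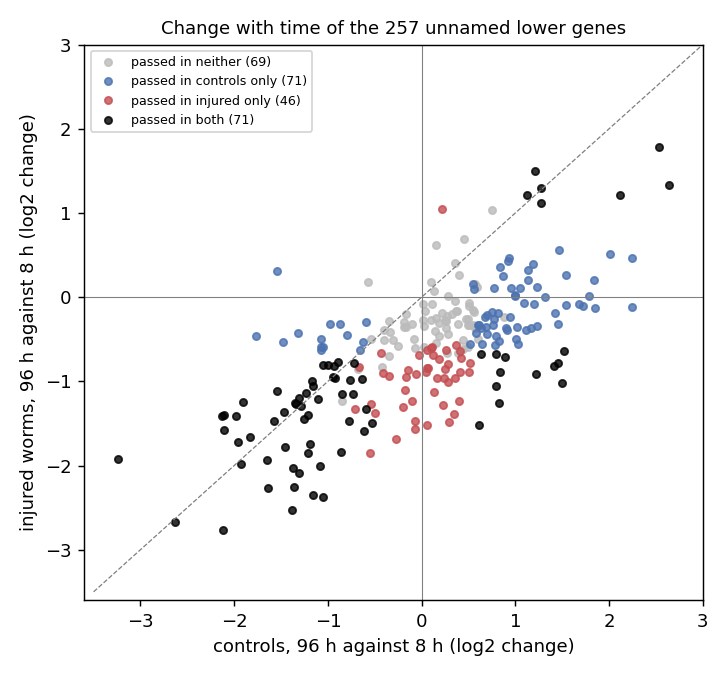
Log2 change of each of the 257 unnamed lower genes between 8 and 96 h in controls (horizontal) and in injured worms (vertical), coloured by whether the change passed limma at an adjusted p below 0.05 in neither (69 genes), controls only (71), injured worms only (46) or both (71), with the line of equal change dashed. Points on the right, the genes that rose in controls, lie mostly near or below 0 on the vertical axis.

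The steps through 48 h depended on the processing. From 8 to 48 h 48 genes rose and 41 fell in controls (18.8 and 30% of all features) and 35 rose and 46 fell in injured worms (25.2 and 5.58%). From 48 to 96 h 17 rose and 14 fell in controls (11.7 and 1.26%), and 0 rose and 60 fell in injured worms (2.67 and 6.69%). With median-of-ratios scaling between libraries the splits of rises to falls were 90 to 36 and 14 to 90 for the first step and 7 to 48 and 2 to 57 for the second, in controls and injured worms. Without the 3 libraries over 5% rRNA they were 98 to 23 and 61 to 53, then 2 to 16 and 0 to 123. Over all features the shares of rises and falls in these 4 comparisons, in the same order, were 33.7 and 29.1%, 15.3 and 16.5%, 6.84 and 10.8%, and 8.97 and 8.70% with the scaling, and 35.6 and 19.5%, 46.2 and 7.93%, 1.53 and 1.96%, and 5.75 and 16.3% without those libraries. The scaling moved the median of all features from -0.09 to 0.11 for controls from 8 to 48 h, from 0.26 to -0.04 for controls from 48 to 96 h and from 0.34 to -0.01 for injured worms from 8 to 48 h.

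Markers of cell types and lists of genes by function were counted in the injury contrast of the same fit. No tissue was assigned to the 257 genes. In that contrast 11.38, 10.2 and 28.4% of all features were lower and 11, 45.8 and 32.8% higher at 8, 48 and 96 h. Of 11 intestinal markers, such as ges-1 and the transcription factor elt-2, 3, 4 and 9 were lower, with median log2 changes of -0.36, -0.40 and -1.60. Their summed level was 1763 to 2084 RPKM in the 8 h controls and 1212 to 2119 in injured worms, and 1837 to 2209 against 464 to 922 at 96 h, and no marker was at 0 throughout. The summed level of these markers, like that of the 257 genes, was lower in injured worms at 96 h without overlap. At 48 h the sums of the markers were 1022 to 1822 RPKM in controls and 670 to 1142 in injured worms. They thus overlapped between the groups at 8 and 48 h. Markers called higher were 1 at 8 h and 2 at 48 h, with ifb-2, an intermediate filament gene, at a log2 change of 0.92 and 1.09 and the actin gene act-5 at 0.61 at 48 h. The 4 somatic gonad markers were all lower at 96 h (median -1.01, summed levels of 201 to 222 RPKM in controls and 80 to 133 in injured worms), as were both coelomocyte markers (median -1.14, 22.7 to 27.3 against 5.2 to 15.1 RPKM). At 8 and 48 h 1 and 0 gonad markers were lower and 0 and 1 higher, and no coelomocyte marker was called. The part of any of these cell types in the result was not tested.

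Among 21 infection response effectors 15, 15 and 17 were lower and 3, 3 and 2 higher at the 3 times. They include sysm-1, 7 of the 269 other lower features and the 4 genes that the rule set aside. These counts are therefore not separate from the values that the rule used. Digestive proteases were lower in 10, 15 and 18 of 18 and higher in 1, 0 and 0. The dod genes were lower in 5, 7 and 9 of 10 and higher in 0, 1 and 1. Lysosomal lipases were lower in 4, 5 and 5 of 7 and vitellogenins in 3, 6 and 6 of 6. In the same order 7, 4, 3 and 3 genes of these lists are among the other lower features. Of 14 regulators of intestinal and immune genes, 1, 1 and 6 were lower and 2, 3 and 2 higher. The kinase gene sek-1 was higher at each time (log2 changes of 0.85, 0.54 and 0.72) and nsy-1 was lower at each time (-0.54, -0.80 and -0.90). The 10 germline and oocyte markers were all higher in injured worms at 48 and 96 h, with summed levels of 274 to 479 RPKM in the 96 h controls and 1142 to 2099 in injured worms. Neuronal markers were higher in 3, 6 and 3 of 8 and lower in 0. Body wall muscle markers were higher in 4, 0 and 0 of 8 and lower in 0, 0 and 2. Pharynx markers were higher in 4, 5 and 1 of 7 and lower in 0, 1 and 2. Hypodermis markers were higher in 0 of 8 and lower in 0, 1 and 1.

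Over the 24 libraries the genes listed by a symbol whose log2(RPKM + 0.5) followed the median of the 257 genes most closely were dhs-3, a lipid droplet dehydrogenase gene (Pearson r = 0.99), bcmo-2 (0.98), smd-1, which encodes a polyamine synthesis enzyme (0.98), gly-8 (0.98) and papl-1 (0.98). dhs-3 had d of -1.37, -1.33 and -2.13. These correlations describe libraries of 6 groups that differ in level and carry no test. Against the same median the correlation of a member ranged from 0.42 in F31D5.6 to 0.98 in F38B6.4, with 207 over 0.8 and 2 under 0.5.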

How the data were processed

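The authors sequenced poly(A) RNA of whole worms, used CLC Genomics Workbench for mapping to ce11, and deposited, as RPKM, the values of 46739 features in 24 libraries. The deposited table also holds 6 columns of the authors' p-values, adjusted or not, for injury at each time, which were not used. Mapping, annotation and strand settings are not given in the sources used here. Columns were assigned to groups by the headers.

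The 257 genes and all lists were chosen with earlier results of these data known. Values were analysed as log2(RPKM + 0.5) for 14813 features with at least 1 RPKM in at least 4 libraries. limma 3.58.1 in R 4.3.3 (6 group means, trend and robust settings) gave two-sided tests with Benjamini-Hochberg adjustment. On simulated data for controls at 96 against 8 h, run on 14813 features, it recovered 62% of changes of log2 size 1 and 99% of size 2. Depth was estimated as the read total at which most low values were whole reads.

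Genes described by library were the 10 with the highest control level, the 10 with the most negative mean d, the 5 largest control rises and falls between 8 and 96 h, and 3 on either side of the limit. Genes named for a family, a neighbour group, a role or opposite courses were chosen after their values were seen. Positions are from Ensembl WBcel235 (ce11). Alternatives were other pseudocounts, filters, limits, scalings, weights and omitted libraries. Python 3.11.15, numpy 2.4.6, pandas 2.3.3 and matplotlib 3.10.9 were used. Protein pairs and promoter motifs, planned at first, were not analysed here.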

Additional observations from a re-analysis of the deposited data

Results flagged for a closer look

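The genes described by library and the median of the 257 genes gave 180 groups of 4 libraries. These were examined for a library far from the other 3, of which chance flags about 1 in 20, and 5 were found. They were control 48 h library 4 of T21H3.1 (652.94 RPKM, the lowest), injured 8 h library 4 of Y54G2A.49 (14.24, the highest), control 8 h library 2 of C35E7.5 (59.16, the highest), injured 48 h library 1 of Y40H7A.10 (20.22, the lowest) and control 96 h library 4 of C30G12.2 (83.36, the lowest).

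Some genes moved in opposite directions with time in the 2 conditions, every control library one way and every injured library the other. The difference itself was not tested. As stated above, 7 of the 257 genes did so, near the 2.17% of all features tested. The ratio of the 96 h to the 8 h mean was 2.797 in controls and 0.497 in injured worms for H34I24.2, 1.843 and 0.366 for C40A11.4, 2.735 and 0.562 for F01D5.2, 1.553 and 0.328 for F49C12.14, and 2.315 and 0.546 for ZK1320.2. For F01D5.2 the injured fall was lost without injured 96 h library 3, at a log2 change of -0.68.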

How the results depend on the processing

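The number of unnamed lower genes was 257. It was 130 at a limit of -1, 415 at a limit of -0.6, and 208 to 312 when each library was left out in turn, the extremes without control 48 h library 3 and without control 48 h library 4. Leaving out the 3 libraries with over 5% rRNA, an alternative chosen after seeing the data, gave 412, of which 250 were among the 257. Other pseudocounts, filters, medians and scalings gave 199 to 348 (trimmed mean scaling, also chosen afterwards for this count, 326).

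No paired analysis was possible because the columns carry no replicate numbers.

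The counts of genes changed between 8 and 96 h stayed within 1.5 times of 142 in controls and 117 in injured worms under every alternative, at 128 to 156 and 95 to 136 with a library left out. The steps through 48 h moved. For controls from 48 to 96 h (31 genes) median-of-ratios scaling gave 55, trimmed mean scaling 54, array quality weights 95 and omission of the libraries with over 5% rRNA 18. Leaving out 1 library gave 16 to 52, and the count moved by over 1.5 times without control 48 h library 2 (18) or 3 (52) and without control 96 h library 1 (17), 2 (17) or 3 (16). For injured worms from 48 to 96 h (60 genes) array weights gave 191 and omission of the libraries with over 5% rRNA 123. A library left out gave 25 to 108, past 1.5 times without control 48 h library 4 (108), injured 48 h library 1 (92), 2 (30) or 4 (25), and injured 96 h library 2 (100), 3 (34) or 4 (25). From 8 to 48 h array weights gave 158 in controls (89) and 131 in injured worms (81). Over all features array weights gave 41.4% rises and 28.6% falls in these controls and 39.6 and 10.6% in these injured worms. For injured worms from 48 to 96 h they gave 13.6 and 37.7%. The cause was not tested. No change of a gene described by library reversed under an alternative, but the majority direction of the counts did: controls from 48 to 96 h turned from 17 up and 14 down to mostly down (7 and 48, 7 and 47, 20 and 75, 2 and 16 in the order above), controls from 8 to 96 h went from 76 and 66 to 68 and 80 with trimmed mean scaling, and injured worms from 8 to 48 h from 35 and 46 to 61 and 53 without the libraries with over 5% rRNA. Over all features controls from 48 to 96 h had 11.7% rises and 1.26% falls in the main fit. Those shares turned as well, to 6.84 and 10.8%, 7.23 and 8.63%, 15.6 and 18.2%, and 1.53 and 1.96% in the same order. Controls from 8 to 96 h turned from 36.2 and 26% to 34.4 and 37.4% with trimmed mean scaling. Injured worms from 8 to 48 h had 46.2 and 7.93% without the libraries with over 5% rRNA. The control majority of the counts from 48 to 96 h also turned, narrowly, with a pseudocount of 0.1 (13 and 14) and with no filter (11 and 12). The majority turned as well without control 48 h library 4 (5 and 23) or control 96 h library 1, 2 or 3. The 8 to 48 h majorities turned with single libraries left out: control 8 h library 2 and control 48 h libraries 1 and 3 for controls, injured 8 h library 4 and injured 48 h library 1 for injured worms. Depth limits the 18 genes under 50 reads most.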
